A study of Homo sapiens with 15 samples.

Results

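The genes described are 32 listed human genes of ribosome biogenesis, the making of ribosomal subunits in the nucleolus. The rule names them by symbol and uses no measured value, although earlier results of these data were known when the list was drawn up. Of the 32 listed genes, 30 had a probe set naming that gene alone, among 18244 genes with such a probe set. GNL3 and DDX18 were not analysed here. All 30 passed the filter on low values, which kept 12721 genes whose highest line mean reached the median of all values (an intensity of 80.6). Each gene is represented by its brightest probe set, taken by the mean over all arrays.

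Expression was profiled on 3 arrays from each of 5 established human cell lines of neuroblastoma, a tumour of the developing sympathetic nervous system. From general knowledge of these lines, NGP, BE(2)-C and KELLY carry amplified copies of the oncogene MYCN, and SK-N-AS and SH-SY5Y do not. All lines grew untreated in DMEM with 10% fetal bovine serum, and the study's title concerns the transcriptional amplification that depends on MYCN. Each line is a single tumour-derived model. BE(2)-C is a clone of SK-N-BE(2) and SH-SY5Y a subclone of SK-N-SH, and no line carries a matched change of MYCN alone. The labels number the 3 arrays of a line and do not call them separate cultures, and p-values across arrays therefore measure only how these samples spread, which may be technical.

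Ribosome biogenesis starts when RNA polymerase I transcribes the precursor of the large ribosomal RNAs. Small nucleolar ribonucleoproteins (snoRNPs) then guide its chemical modification, and separate sets of assembly factors cut, fold and export the small and large subunits. MYC and its paralog MYCN are known to bind many genes of this pathway, often at the E-box CACGTG near the start of transcription, and a large nucleolus is a known feature of MYC-driven tumour cells.

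Promoter sequences in RefSeq (GRCh38.p14, 250 bases before to 50 bases from the annotated start) were given for 25 of the 32 listed genes. NOLC1, NOP58, RRP12, BOP1, RRS1, DDX18 and RRP1B had no entry. The motif CACGTG, which reads the same on both strands and was searched with no other motif overlapping it, was in the window of 13 of the 25 genes (52.0%). It was in 12 of the 24 tested genes with an entry, in 26.4% of the 110 other ribosome biogenesis genes with an entry, in 12.6% of 10408 tested genes of the array with one, and in 8.77% of all genes in the promoter table. Among the 300-base windows there, 7.26% held it. The related motif CACGCG, read on both strands, was in 8 of the 25 listed genes, in 22.4% of the tested genes and in 13.5% of the table. The 13 CACGTG motifs began between 31 bases before and 35 bases after the annotated start, 3 of them before it and 10 at or after it. The windows around the motif are shown for 7 of these 13 genes. CACGTG is in capitals, and each window is written 5′ to 3′ on the strand of its gene. FBL lies at chr19:39846356-39846385 on the minus strand, RRP9 at chr3:51941892-51941921 on the minus strand, WDR43 at chr2:28894658-28894687 on the plus strand, RCL1 at chr9:4792936-4792965 on the plus strand, GAR1 at chr4:109815781-109815810 on the plus strand, PES1 at chr22:30591880-30591909 on the minus strand and MRTO4 at chr1:19251807-19251836 on the plus strand.
FBL: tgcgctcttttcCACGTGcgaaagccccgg
RRP9: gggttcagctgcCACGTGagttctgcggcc
WDR43: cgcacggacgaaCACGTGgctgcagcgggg
RCL1: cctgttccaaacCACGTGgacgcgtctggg
GAR1: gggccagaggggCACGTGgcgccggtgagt
PES1: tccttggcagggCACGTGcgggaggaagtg
MRTO4: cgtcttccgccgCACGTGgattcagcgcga
The motif also lay in the windows of DDX21, NOP2, UTP20, GNL3, NOP14 and BYSL. It was not in the windows of NCL, NPM1, NOP56, DKC1, NHP2, TSR1, WDR12, PPAN, NIP7, NOP16, POLR1A or POLR1B, which says only that these letters are not in that stretch.

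The deposited intensities did not share a common median over the tested genes. The median log2 value over the tested genes was 8.06 ± 0.06 for NGP, 8.67 ± 0.04 for BE(2)-C and 7.76 ± 0.04 for KELLY, against 8.87 ± 0.06 for SK-N-AS and 7.54 ± 0.07 for SH-SY5Y (SD over 3 arrays). The median of the ERCC spike-in probe sets, RNAs added at cell lysis, lay between 8.85 and 9.12 on all arrays. On the deposited scale, therefore, every gene shares a shift of its line. Cells were counted before RNA isolation, but the part of cell number per sample and of RNA per cell in that shift was not tested. The centred scale takes away each array's median over the tested genes. For the ACTB controls, the 3′ probe sets exceeded the 5′ ones, a sign of RNA integrity, by 0.71 (log2) in SK-N-AS and by 0.97 to 1.23 in the remaining lines. For GAPDH that excess was 0.18 to 0.24 for the amplified lines, against 0.19 for SK-N-AS and 0.35 for SH-SY5Y. Of 7 adrenergic neuroblastoma markers with a probe set, none was at 0 on any array, and SK-N-AS had DBH at 96.0 and CHGA at 53.3, against 778 to 2435 and 5858 to 16971 in the other lines. The centred median of those markers was 3.17 for NGP, 2.57 for BE(2)-C and 3.40 for KELLY, against -0.63 for SK-N-AS and 3.73 for SH-SY5Y. The part of RNA integrity, and of this difference in cell identity, in the results was not tested.

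The ribosome biogenesis genes followed the overall level of each array on the deposited scale. Their median log2 value was 9.92 ± 0.04 for NGP, 10.55 ± 0.08 for BE(2)-C and 9.63 ± 0.04 for KELLY, against 11.03 ± 0.07 for SK-N-AS and 9.58 ± 0.05 for SH-SY5Y (SD over 3 arrays). The line means spanned 1.45 on the log2 scale, close to the 1.33 spanned by the median of all tested genes, and the spread between arrays of a line was 0.06. SK-N-AS, a line without amplification, held the highest level, and the arrays of SH-SY5Y, the other line without amplification, overlapped those of KELLY. The intensity of MYCN itself was 9925 ± 615 for NGP, 13689 ± 526 for BE(2)-C and 9363 ± 163 for KELLY, against 78.8 ± 6.30 for SK-N-AS and 152 ± 30.2 for SH-SY5Y. MYC, its paralog, ran the other way. It was at 31.6 ± 4.05, 81.0 ± 12.7 and 30.2 ± 1.72 for NGP, BE(2)-C and KELLY, against 1788 ± 128 for SK-N-AS and 1746 ± 145 for SH-SY5Y. Every line thus had a high value of 1 of these paralogs. With 5 lines, no correlation of the genes with MYCN or MYC was computed.

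On the centred scale the lines came close together. The median of the 30 genes lay 1.86 ± 0.09, 1.88 ± 0.05 and 1.87 ± 0.03 above the array median for NGP, BE(2)-C and KELLY, against 2.16 ± 0.02 for SK-N-AS and 2.04 ± 0.04 for SH-SY5Y (SD over 3 arrays). The difference between amplified and other lines in this list median was -0.23 on the log2 scale. Gene by gene the sign was the opposite, since the median over genes of the difference between amplified and other lines was 0.14, with 16 genes higher and 14 lower. Over all 12721 tested genes that median was 0.05. The order of the lines in the list median also turned with the choice of probe set. With the mean of all probe sets of a gene, the level of BE(2)-C minus the mean of the 5 lines was 0.17 and that of SK-N-AS -0.06. The 126 other ribosome biogenesis genes had centred medians of 1.48, 1.52 and 1.41 for NGP, BE(2)-C and KELLY, against 1.54 for SK-N-AS and 1.42 for SH-SY5Y. Markers of cycling cells had centred medians of 2.07, 2.78 and 2.27 for NGP, BE(2)-C and KELLY, against 2.32 for SK-N-AS and 2.32 for SH-SY5Y, and their part was not tested.

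**Figure D1:**
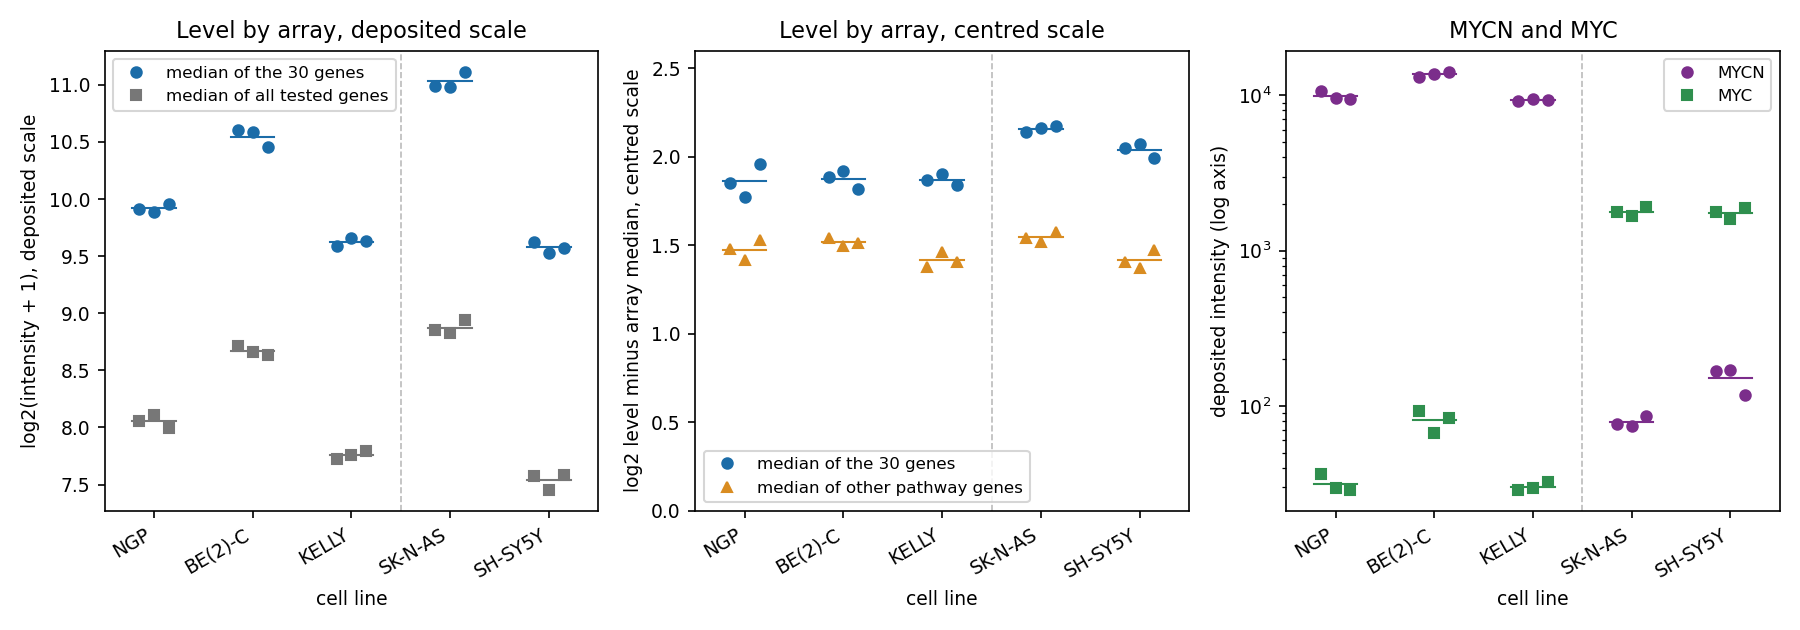
Each point is an array and each bar the mean of 3 arrays of a line, with the MYCN-amplified lines left of the dashed line. The left panel plots the median log2 level of the 30 genes and of all tested genes, the middle panel the median level after subtraction of the array median (30 genes and 126 other pathway genes), and the right panel the deposited intensity of MYCN and MYC on a log axis; the 30 genes span 9.58 to 11.03 over the lines on the deposited scale and 1.86 to 2.16 on the centred scale.

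No ribosome biogenesis gene separated the MYCN-amplified lines from the others under the strictest rule. That rule asked limma to pass each of the 6 contrasts between classes, each with a Benjamini-Hochberg adjusted p below 0.05 and a log2 difference of at least 1, in 1 direction. On the deposited scale it called 0 of 30 genes higher and 0 lower, where 0.684% and 0.346% of all tested genes were called. On the centred scale it also called 0 higher and 0 lower, where 0.558% and 0.558% were. By unadjusted p alone, with no fold, all 6 limma contrasts passed for 1 gene higher and 0 lower on the deposited scale, where 3.58% and 1.28% of all tested genes passed, and for 7 higher and 3 lower on the centred scale, where 6.11% and 5.48% passed. A second limma fit took the 5 line means as replicates. It called 0 genes in either direction on both scales, beside 0.197% higher and 0.134% lower of all tested genes on the deposited scale, and 0.0% in each direction on the centred scale. Centred, it did not call MYCN itself either, with a difference of 6.67 (limma adjusted p = 0.201). Its lack of calls on that scale, and its adjusted p there, therefore cannot tell whether a gene differs. By unadjusted p the fit to line means passed 0 genes on the deposited scale, and 4 higher and 1 lower on the centred scale, where 3.18% and 3.0% of all tested genes passed. Leaving out a line changed the count of the first rule. Without SK-N-AS it called FBL higher on the deposited scale. Without SH-SY5Y it called GAR1, NIP7, RRS1 and POLR1B lower there, and RRP9 higher and GAR1 lower on the centred scale. Both settings ask for fewer contrasts, all against the 1 remaining line without amplification. The share of all tested genes was not counted under them. As deposited, GAR1, NIP7, RRS1 and POLR1B were higher in SK-N-AS than in each other line, where 12.6% of all tested genes were. FBL was lower in SH-SY5Y than in each other line, where 3.95% were. The groups are small, and an adjusted p that misses the threshold does not show that the lines are alike.

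A weaker order was visible after centring. In 8 of 30 genes (26.7%) all 9 arrays of the amplified lines lay above all 6 arrays of the other lines, where 6.09% of all tested genes did so. These were NCL, NPM1, FBL, NOP58, RRP9, PES1, BOP1 and RRP1B. In 4 genes (13.3%), MRTO4, RRP12, RRS1 and POLR1B, all 9 lay below, where 5.62% of all tested genes did. Among the 126 other pathway genes, 11 lay above and 11 below (8.73% each). On the deposited scale 0 of 30 genes lay above and 0 below, where 3.46% and 1.23% of all tested genes did. Such a count carries no test here, and it depends on 5 lines only. The 30 genes were also brighter, with a median log2 level of 10.08 against 8.10 for all tested genes. The part of brightness in these shares was not tested. The number of genes lying below became 8 without SH-SY5Y and 2 under quantile normalization. Without SH-SY5Y the 9 arrays are set against those of SK-N-AS alone, which is easier to meet. The share of all tested genes was not counted under either setting.

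**Figure D2:**
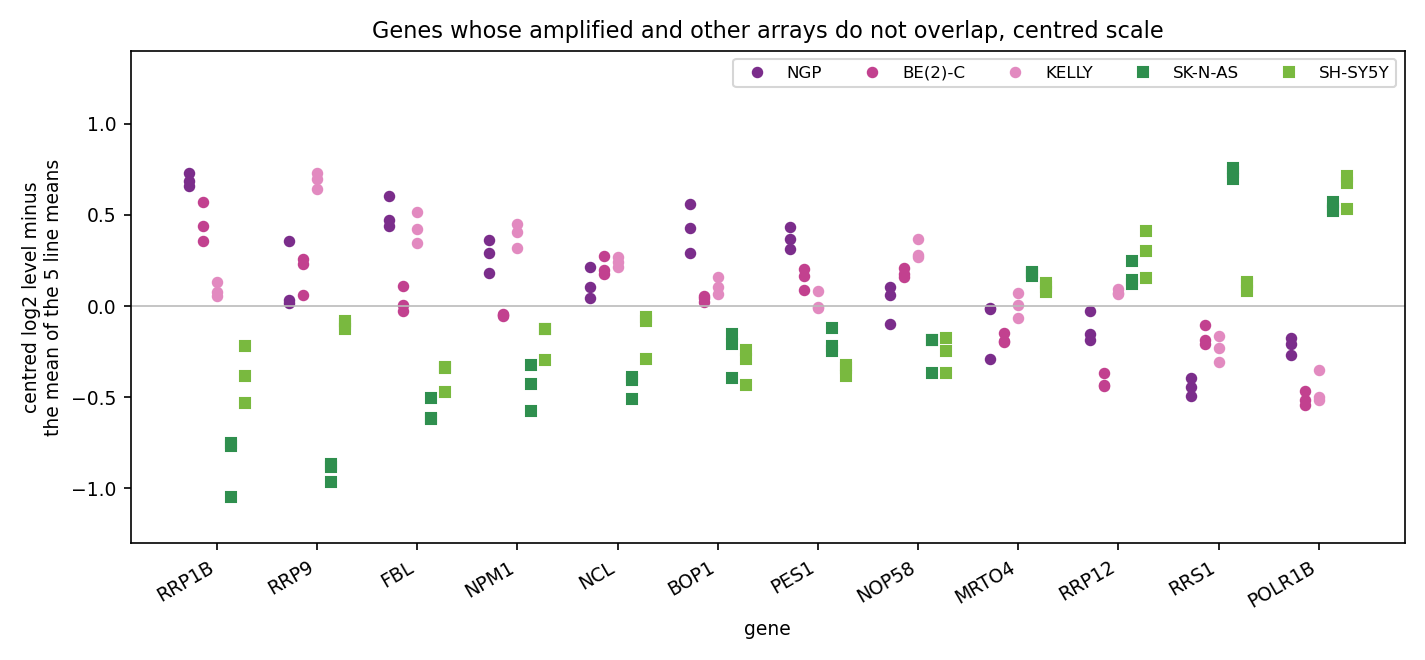
Each point is an array, placed at its centred log2 level minus the gene's mean over the 5 lines, for the 12 genes whose amplified arrays (circles) and other arrays (squares) do not overlap. The genes run by class difference, from RRP1B at 1.03 to POLR1B at -0.98, and for RRP1B, RRP9 and RRS1 SK-N-AS stands farther from the amplified lines than SH-SY5Y does.

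Among the abundant nucleolar proteins, NPM1 and NCL had amplified arrays that all lay above the others on the centred scale. NPM1 (nucleophosmin), a chaperone of pre-ribosomes, had intensities of 18215, 16626 and 16552 in NGP, 21646, 20686 and 20376 in BE(2)-C, and 13964, 15197 and 16083 in KELLY. It had 19570, 16139 and 19413 in SK-N-AS, and 9274, 7577 and 9325 in SH-SY5Y. As deposited, SK-N-AS overlapped the amplified lines and SH-SY5Y was low. After centring all 9 amplified arrays were higher, with a class difference of 0.52 ± 0.18 (SE over lines, limma adjusted p = 0.783). On another probe set of NPM1, also above the filter, the centred class difference was 1.21. Its range over the lines was 2.01, with SH-SY5Y lowest in place of SK-N-AS. The remaining probe sets of NPM1 gave class differences of 0.29 to 0.48. NCL (nucleolin), which binds the nascent ribosomal RNA, had 9260, 9205 and 9560 in NGP, 16420, 14791 and 14706 in BE(2)-C, and 8206, 8255 and 8294 in KELLY. It had 11350, 10278 and 11967 in SK-N-AS, and 5027, 5347 and 5936 in SH-SY5Y. Its centred difference was 0.48 ± 0.15 (limma adjusted p = 0.759 over lines), and again only centring separated the classes. NOLC1, a chaperone of snoRNPs, and DDX21, a helicase of early processing, differed by 0.30 and -0.03, and their classes overlapped.

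The box C/D snoRNP proteins and the U3 protein RRP9 had the highest median class difference of the 6 roles on the centred scale, 0.61 over 4 genes. RRP9, which is specific to the U3 snoRNP, had 233, 302 and 221 in NGP, 430, 407 and 354 in BE(2)-C, and 281, 299 and 315 in KELLY. It had 215, 198 and 227 in SK-N-AS, and 149, 139 and 154 in SH-SY5Y. SH-SY5Y was below every amplified array as deposited, while SK-N-AS touched NGP. Centred, RRP9 was higher in each amplified line than in SK-N-AS, with limma log2 differences of 1.04 ± 0.08 for NGP (adjusted p = 2.09e-09), 1.09 ± 0.08 for BE(2)-C (1.34e-09) and 1.60 ± 0.08 for KELLY (5.41e-12). FBL (fibrillarin), the methyltransferase of the box C/D particles, had 8460, 7812 and 7410 in NGP, 9474, 8497 and 8130 in BE(2)-C, and 5602, 6046 and 6615 in KELLY. It had 6784, 6149 and 6719 in SK-N-AS, and 3155, 2893 and 2893 in SH-SY5Y. FBL was the only one of the 30 genes to set SH-SY5Y apart from each other line as deposited, with log2 differences of the other lines from SH-SY5Y of 1.03 to 1.54 in limma, where 3.95% of all tested genes were lower in SH-SY5Y in all 4 contrasts. On the centred scale FBL differed between the classes by 0.80 ± 0.21 (limma adjusted p = 0.759 over lines), with NGP higher than SK-N-AS by 1.08 ± 0.06 (adjusted p = 1.39e-11). NOP58, a core scaffold protein, had non-overlapping arrays with a difference of 0.42, whereas its partner NOP56 overlapped, at 0.21, with BE(2)-C the lowest line.

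Of the box H/ACA proteins, which carry out pseudouridylation, GAR1 had the largest differences between lines. GAR1 had 947, 1101 and 1135 in NGP, 1592, 1650 and 1378 in BE(2)-C, and 823, 804 and 740 in KELLY. It had 3245, 4538 and 4213 in SK-N-AS, and 957, 1084 and 770 in SH-SY5Y. All 3 arrays of SK-N-AS were far above the other 12, while SH-SY5Y lay among the amplified lines. On the centred scale GAR1 was lower in each amplified line than in SK-N-AS, with limma log2 differences of -1.09 ± 0.14 for NGP (adjusted p = 1.14e-06), -1.16 ± 0.14 for BE(2)-C (5.47e-07) and -1.21 ± 0.14 for KELLY (2.91e-07). DKC1 (dyskerin), the pseudouridine synthase itself, and NHP2 differed between the classes by 0.22 and -0.03, with overlapping arrays.

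Small subunit processing genes divided, with a median centred class difference of -0.08 over 7 genes. WDR43, which belongs to the part of the small subunit processome that also acts in transcription, had 656, 684 and 820 in NGP, 758, 708 and 721 in BE(2)-C, and 438, 482 and 428 in KELLY. It had 446, 485 and 488 in SK-N-AS, and 318, 320 and 259 in SH-SY5Y. KELLY and SK-N-AS overlapped as deposited, while on the centred scale WDR43 was higher than in SK-N-AS by 1.42 ± 0.11 in NGP (limma adjusted p = 1.09e-09) and by 1.04 ± 0.11 in KELLY (7.47e-08). On the other probe set of WDR43 the centred range over the lines was 0.63, with SH-SY5Y lowest. Neither difference would reach the threshold of 1 there. RCL1, an early processing factor known best from yeast, had 214, 210 and 204 in NGP, 429, 422 and 397 in BE(2)-C, and 222, 204 and 225 in KELLY. It had 223, 205 and 241 in SK-N-AS, and 176, 144 and 161 in SH-SY5Y. BE(2)-C was high and SH-SY5Y low as deposited; centred, SK-N-AS was the lowest line, with BE(2)-C above it by 1.10 ± 0.06 (limma adjusted p = 3.87e-11) and KELLY by 1.08 ± 0.06 (4.46e-11). UTP20, a large processome scaffold, was instead highest in SK-N-AS, at 788 ± 9.80 against 152 ± 6.62 in SH-SY5Y (SD, n = 3 each), a centred log2 difference of 1.03 ± 0.06 (limma adjusted p = 1.33e-11). NOP14, BYSL and TSR1, which act from early processing to the late cytoplasmic steps, differed between the classes by -0.08, -0.08 and -0.14. RRP12, an export factor known best from yeast, lay lower in all 9 amplified arrays after centring, with a class difference of -0.38 ± 0.28 (SE over lines; limma adjusted p = 0.815).

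Large subunit processing genes showed the widest range of patterns. RRP1B, a nucleolar protein of large subunit processing, had the largest positive class difference of the 30 genes. It had 4537, 4780 and 4556 in NGP, 6139, 5586 and 6352 in BE(2)-C, and 2487, 2451 and 2485 in KELLY. It had 2400, 2861 and 3143 in SK-N-AS, and 1421, 1448 and 1777 in SH-SY5Y. KELLY and SK-N-AS overlapped as deposited. Centred, the difference was 1.03 ± 0.28 over lines (limma adjusted p = 0.759). NGP exceeded SK-N-AS by 1.55 ± 0.08 (limma adjusted p = 7.53e-12) and SH-SY5Y by 1.07 ± 0.08 (2.66e-09). On the chosen probe sets, RRP1B was the sole gene of the 30 called higher in an amplified line than in SH-SY5Y on that scale. A dimmer probe set of RRP1B, also above the filter, had a centred class difference of 0.36. Its centred range over the lines was 0.59, so no pair of lines would reach the threshold of 1 on it. The centred calls of RRP1B therefore rest on the chosen probe set.

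NIP7 and RRS1 took the opposite side, together with NOP16. NIP7, an assembly factor of the large subunit, had 637, 639 and 624 in NGP, 1875, 1752 and 1892 in BE(2)-C, and 497, 513 and 486 in KELLY. It had 3707, 3391 and 4085 in SK-N-AS, and 721, 682 and 723 in SH-SY5Y. SK-N-AS was highest and BE(2)-C second on every array, so the amplified lines straddled SH-SY5Y. Its range over the lines, 2.90 as deposited and 1.78 centred, was the widest of the 30 genes, and its centred log2 differences from SK-N-AS were -1.74 ± 0.05 in NGP (limma adjusted p = 4.81e-15) and -1.78 ± 0.05 in KELLY (4.24e-15). RRS1, which helps to load the 5S RNA particle, had 1052, 1055 and 1042 in NGP, 2097, 1885 and 1877 in BE(2)-C, and 966, 1037 and 961 in KELLY. It had 4124, 3945 and 4467 in SK-N-AS, and 1082, 1029 and 1121 in SH-SY5Y. SK-N-AS stood highest and BE(2)-C next as deposited. After centring all 9 amplified arrays were lower, with a class difference of -0.70 ± 0.29 over lines (limma adjusted p = 0.796). NOP16 was lower in KELLY than in SK-N-AS, with a centred log2 difference of -1.15 ± 0.06 (limma adjusted p = 1.89e-12).

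The PeBoW complex, formed by PES1, BOP1 and WDR12 and needed for processing of the large subunit RNAs, had a positive centred class difference in all 3 members. PES1 had intensities of 753 ± 60.4 for NGP, 989 ± 59.8 for BE(2)-C and 479 ± 21 for KELLY, against 894 ± 39 for SK-N-AS and 318 ± 22.5 for SH-SY5Y (SD over 3 arrays). BOP1 had 1251 ± 166 for NGP, 1456 ± 51.1 for BE(2)-C and 810 ± 25.2 for KELLY, against 1371 ± 135 for SK-N-AS and 519 ± 59.4 for SH-SY5Y. Both had non-overlapping arrays after centring, with class differences of 0.45 ± 0.26 and 0.48 ± 0.26 (SE over lines; limma adjusted p = 0.796 for each). WDR12 differed by 0.22 and its arrays overlapped. PPAN, NOP2, a methyltransferase of the large ribosomal RNA, and MRTO4, which acts at the ribosomal stalk, differed by 0.33, 0.08 and -0.23, and of these only MRTO4 had non-overlapping arrays. On the other probe set of MRTO4, which passed the filter, KELLY was the highest line after centring and BE(2)-C the lowest. The separation of MRTO4 therefore holds only on the chosen probe set.

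The large subunits of RNA polymerase I had different patterns. POLR1B had 438, 472 and 447 in NGP, 602, 559 and 539 in BE(2)-C, and 326, 299 and 310 in KELLY. It had 1352, 1295 and 1395 in SK-N-AS, and 544, 553 and 621 in SH-SY5Y. SK-N-AS was above all others as deposited, and after centring both lines without amplification were higher, with the largest negative class difference of the 30 genes, -0.98 ± 0.26 over lines (limma adjusted p = 0.759). Its centred log2 differences from SH-SY5Y were -1.15 ± 0.06 in BE(2)-C (limma adjusted p = 1.63e-11) and -1.09 ± 0.06 in KELLY (3.45e-11), and BE(2)-C also lay below SK-N-AS, at -1.05 ± 0.06 (2.97e-11). POLR1A, the other large catalytic subunit, differed between the classes by -0.05, with NGP the highest line.

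**Figure D3:**
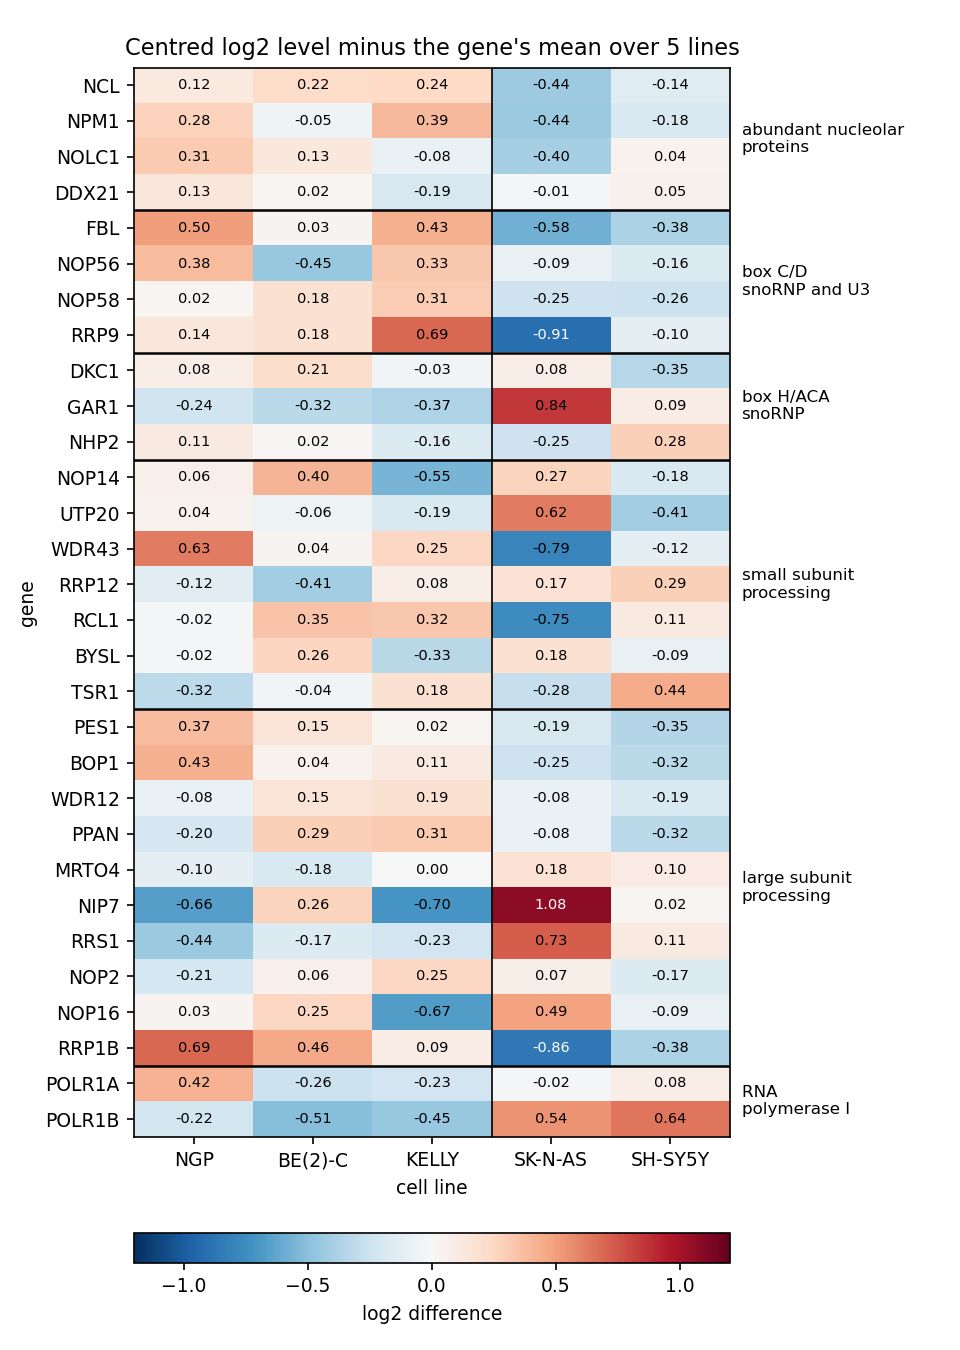
Each cell gives the centred log2 level of a gene in a line (mean of 3 arrays) minus that gene's mean over the 5 lines, red for higher and blue for lower, with genes grouped by role and the amplified lines left of the vertical line. The deepest colours lie in the SK-N-AS column, from 1.08 for NIP7 to -0.91 for RRP9, and no role is of 1 colour in all 3 amplified lines.

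Comparing the lines in pairs, most calls on the deposited scale followed the brighter line. A pair was called at an adjusted p below 0.05 and a log2 difference of at least 1 in limma. SK-N-AS was called higher than SH-SY5Y for 23 of 30 genes, where 64.2% of all tested genes were, and BE(2)-C higher than SH-SY5Y for 21, where 53.6% were. KELLY was lower than SK-N-AS for 14 genes (49.1% of all tested genes), NGP lower than SK-N-AS for 11 (36.5%), and BE(2)-C higher than KELLY for 11 (39.2%). NGP was higher than SH-SY5Y for 6 (18.8%), KELLY higher than SH-SY5Y for 2 (10.4%), and NGP lower than BE(2)-C for 2 (26.3%). BE(2)-C was lower than SK-N-AS for 4 (15.8%) and higher for 1 (9.79%). Between NGP and KELLY limma called 0 higher and 0 lower, beside 11.7% and 4.47% of all tested genes, with 21 higher and 3 lower at an unadjusted p below 0.05, where 55.9% and 17.4% of all tested genes passed. In all, 95 of 300 gene and pair combinations were called (31.7%), beside 37.7% over all tested genes. GAR1, NIP7, RRS1 and POLR1B were higher in SK-N-AS than in each of the other lines as deposited, where 12.6% of all tested genes were. Under quantile normalization 24 combinations were called. These pairs share lines, so their counts are not independent.

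Fewer genes were called after centring. Of 300 combinations 24 were called (8.0%), beside 20.8% over all tested genes and 7.86% over the other pathway genes. They fell in 11 of the 30 genes (36.7%), where 54.6% of all tested genes were called in any pair. Between amplified lines 0 of 30 genes were called in any of the 3 pairs, beside 19.3% of all tested genes for NGP and BE(2)-C, 14.1% for NGP and KELLY and 17.4% for BE(2)-C and KELLY. At an unadjusted p below 0.05, limma passed 11 genes higher and 12 lower in NGP against BE(2)-C (41.8% and 35.9% of all tested genes), 13 and 9 in NGP against KELLY (33.0% and 34.4%), and 11 and 8 in BE(2)-C against KELLY (34.6% and 44.1%). SK-N-AS took part in 21 of the 24 calls. Its share of the calls over all tested genes was not counted. Over all tested genes too, each amplified line had more calls against SK-N-AS, both directions together, than against another amplified line. NGP was higher than SK-N-AS for FBL, RRP9, WDR43 and RRP1B (15.8% of all tested genes) and lower for GAR1, NIP7 and RRS1 (14.3%). BE(2)-C was higher than SK-N-AS for RRP9, RCL1 and RRP1B (12.5%) and lower for GAR1 and POLR1B (12.5%). KELLY was higher than SK-N-AS for FBL, RRP9, WDR43 and RCL1 (15.6%) and lower for GAR1, NIP7 and NOP16 (13.5%). SK-N-AS was higher than SH-SY5Y for UTP20 and NIP7 (11.5%). SH-SY5Y differed from the amplified lines in RRP1B, higher in NGP (7.79%), and in POLR1B, lower in BE(2)-C (9.32%) and in KELLY (7.8%). In limma 0 of 30 genes marked a single line in all 4 of its contrasts after centring, where 19.0% of all tested genes did. At an unadjusted p below 0.05 in limma, 27 of 30 did so, beside 80.9% of all tested genes.

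**Figure D4:**
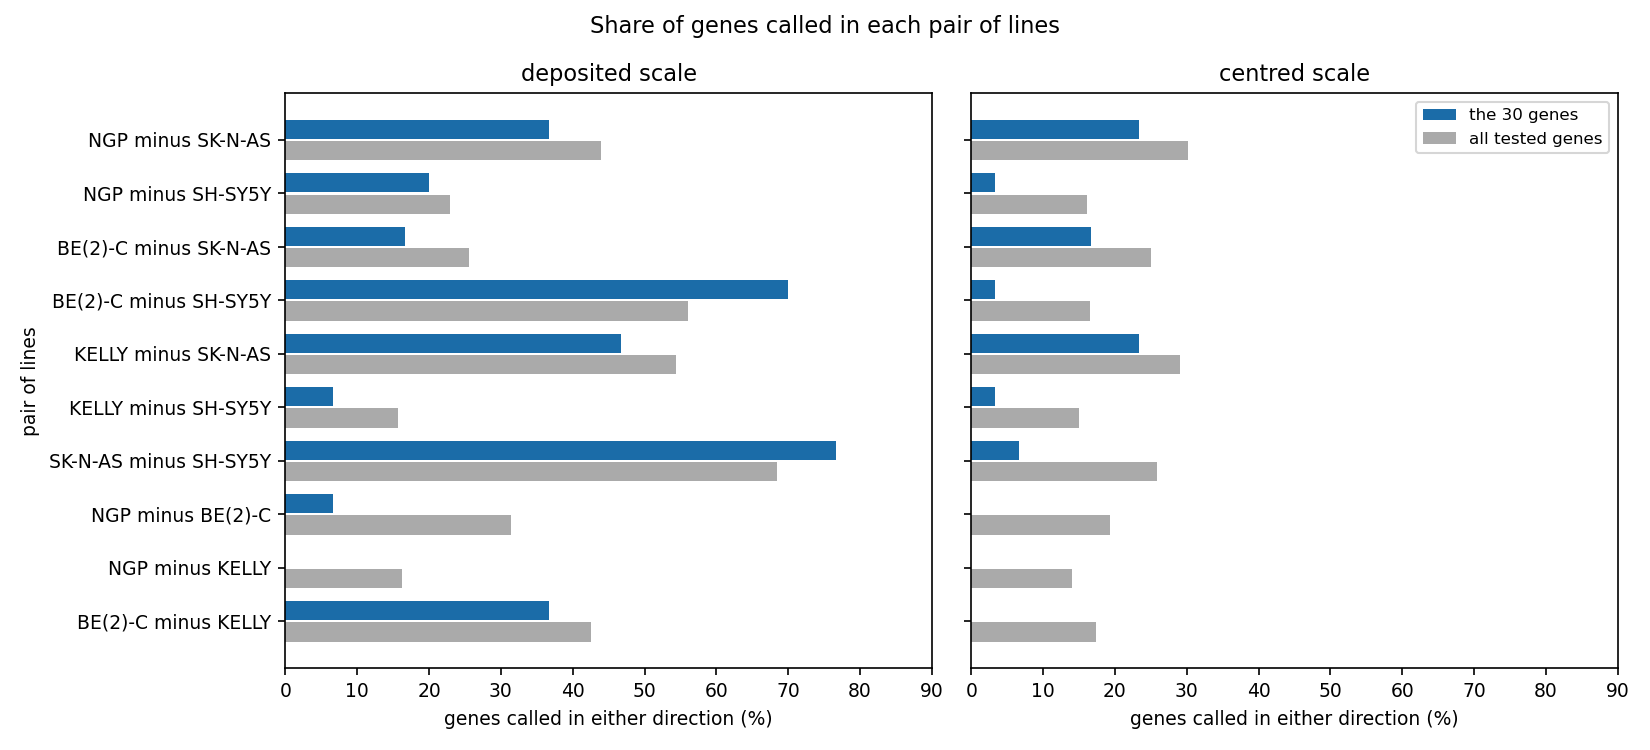
Bars give the percent of the 30 genes (blue) and of all 12721 tested genes (grey) called in either direction in each pair of lines, on the deposited scale (left panel) and the centred scale (right panel). The blue bars sum to 95 calls on the deposited scale and 24 on the centred scale, and on the centred scale every blue bar is shorter than its grey bar.

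After centring, the median range over the 5 line means was 0.75 for the 30 genes, 0.82 for the 126 other pathway genes and 1.08 for all tested genes. The 30 genes were also brighter, with a median log2 level of 10.08 against 8.10 for all tested genes, and the part of brightness in this narrower range was not tested. On the deposited scale the highest line was BE(2)-C for 15 genes (33.0% of all tested genes) and SK-N-AS for 15 (54.6%), and the lowest was SH-SY5Y for 19 (56.4%), KELLY for 10 (24.8%) and NGP for 1 (10.3%). On the centred scale NGP was the highest line for 9 genes (20.4% of all tested genes), KELLY for 7 (20.9%), SK-N-AS for 6 (23.3%), BE(2)-C for 4 (18.1%) and SH-SY5Y for 4 (17.4%).

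Class differences overlapped between the genes with and without the E-box motif. The 12 tested genes with CACGTG in the promoter window had a median centred class difference of 0.03, against 0.09 for the 12 without it. Non-overlapping arrays were found with amplified lines higher for 3 and lower for 1 of the genes with the motif, and for 2 and 1 of those without it. FBL and RRP9, among the most positive, and GAR1, among the most negative, all hold it. POLR1B and NIP7, the most negative genes, do not, and RRP1B, the most positive, had no promoter entry.

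Of the other ribosome biogenesis genes, limma called 0 of 126 in all 6 class contrasts on either scale, with 11 higher and 11 lower at an unadjusted p below 0.05 on the centred scale, where 6.11% and 5.48% of all tested genes passed. Their median centred class difference was 0.09. The largest were NLE1 at 1.33, NMD3 at 1.25 and RRP7A at 1.05, factors of late large subunit assembly, its nuclear export and small subunit processing. The smallest were EXOSC3, a subunit of the RNA exosome, at -1.28, LYAR, a nucleolar zinc finger protein, at -1.25, and FTSJ3, a methyltransferase of pre-ribosomal RNA, at -1.18. The choice of probe set mattered little for the sign of the class difference. Of the 41 further probe sets of 22 of the 30 genes, 38 passed the filter, and 1 of these, for NOP2, had the other sign of class difference. The median gap to the chosen probe set was 0.09 and the largest, for NPM1, 0.70. These comparisons cover the class difference only, not whether arrays overlap or pairs of lines are called.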

How the data were processed

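For every probe set and array the authors deposited 1 linear intensity, which is the value analysed. Per the labels' protocols, cells were counted before RNA isolation, ERCC spike-in RNA went in at lysis, and a 3′ in vitro transcription kit labelled 100 ng of RNA. The submitters' processing notes name MAS5. Neither its version nor the scaling is given in the sources used here. The members and gene lists were chosen with earlier results of these data known.

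Probe sets naming 1 gene were kept (45277 of 49494), the brightest per gene was taken, and genes below the filter were left out. Tests used log2(intensity + 1), which understates the change of dim genes. limma (version 3.58.1, R 4.3.3; lmFit, eBayes with trend) was fitted to 15 arrays and 12721 genes with a mean for each line, and p-values were adjusted over all genes within a contrast. A second fit used the 5 line means, 3 against 2. The code was tested on simulated data. Per-array values are given for the 1 to 3 genes of each role with the largest absolute class difference and for every gene marking a line. Of the other pathway genes, the 3 largest and 3 smallest are named. Marking on the deposited scale and the counts of non-overlapping arrays were added after seeing the data. Alternatives covered scaling, pseudocount, filter, probe set, prior, replicate block and left-out arrays and lines. The number of arrays limits the precision.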

Additional observations from a re-analysis of the deposited data

How the results depend on the processing

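Under every scaling, filter, pseudocount, probe set, prior and replicate alternative the class counts stayed at 0, and leaving out a line changed them. Without SK-N-AS, limma called 1 gene (FBL) higher on the deposited scale. Without SH-SY5Y it called 4 lower there (GAR1, NIP7, RRS1 and POLR1B), and 1 higher (RRP9) and 1 lower (GAR1) on the centred scale. Both settings compare the amplified lines with 1 line only, and the share of all tested genes was not counted under them. The pair calls became 24 under quantile normalization in place of 95, and the genes marking a line on the deposited scale 0 in place of 5, since that setting removes the level of each array. Without probe sets marked _s_at or _x_at, 1 gene marked a line on the centred scale. Genes with amplified arrays below the others numbered 2 under quantile normalization and 8 without SH-SY5Y, where only the arrays of SK-N-AS remain to compare with. The share of all tested genes was not counted for either number. Leaving out single arrays gave 91 to 98 deposited and 22 to 25 centred pair calls, 8 to 9 and 4 to 5 genes with non-overlapping arrays, and 4 to 5 marking genes. Same-numbered arrays did not deviate together (median correlation -0.04, against 0.01 for different numbers), so the numbers pair nothing, and the fit with the replicate block gave the same 95 and 24 pair calls.

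The list median per line minus the mean of the 5 lines was -0.22, 0.41, -0.51, 0.89 and -0.56 for NGP, BE(2)-C, KELLY, SK-N-AS and SH-SY5Y on the deposited scale, and -0.10, -0.09, -0.09, 0.20 and 0.08 on the centred scale. Deposited values moved beyond 1 SD with equal ERCC medians (NGP -0.27, SH-SY5Y -0.48), with the mean of probe sets (NGP -0.11, BE(2)-C 0.60, KELLY -0.38, SK-N-AS 0.61, SH-SY5Y -0.73), without probe sets marked _s_at or _x_at (BE(2)-C 0.51, KELLY -0.61, SK-N-AS 0.82, SH-SY5Y -0.51) and under quantile normalization (NGP -0.10, BE(2)-C -0.17, KELLY -0.0016, SK-N-AS 0.15, SH-SY5Y 0.11). Centred values did so with the mean of probe sets (NGP 0.039, BE(2)-C 0.17, KELLY -0.019, SK-N-AS -0.058, SH-SY5Y -0.13), without those probe sets (BE(2)-C 0.023, KELLY -0.22, SK-N-AS 0.13, SH-SY5Y 0.14), under quantile normalization (BE(2)-C -0.17, KELLY -0.0016, SK-N-AS 0.15), with no filter (BE(2)-C 0.050, KELLY -0.21, SK-N-AS 0.29, SH-SY5Y 0.0092), with a stricter filter (BE(2)-C -0.14, KELLY -0.058) and with a pseudocount of 16 (SK-N-AS 0.22).

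Class differences of single genes turned sign mostly when a line was left out, and the cause was not tested. On the deposited scale the values without SH-SY5Y were -0.082 for NCL, -0.062 for NPM1, -0.19 for NOLC1, -0.54 for NOP56, -0.30 for NOP58, -0.70 for DKC1, -0.33 for PES1, -0.27 for BOP1, -0.55 for WDR12, -0.50 for PPAN and -0.75 for NOP2. Without SK-N-AS they were 0.56 for DDX21, 0.23 for GAR1, 0.33 for NHP2, 0.77 for NOP14, 0.97 for UTP20, 0.18 for RRP12, 0.68 for BYSL, 0.12 for TSR1, 0.43 for MRTO4, 0.24 for NIP7, 0.23 for RRS1, 0.59 for NOP16 and 0.52 for POLR1A. Without BE(2)-C they were -0.0015 for NOLC1, -0.14 for DKC1, -0.11 for WDR12, -0.041 for PPAN and -0.23 for NOP2. Without KELLY they were 0.22 for DDX21, 0.20 for NHP2, 0.35 for NOP14, 0.044 for UTP20, 0.23 for BYSL, 0.10 for NOP16 and 0.21 for POLR1A. BYSL turned to 0.17 and NOP2 to -0.014 with the mean of probe sets, and NOP2 to -0.055 with equal ERCC medians and to -0.055 without probe sets marked _s_at or _x_at. On the centred scale DDX21 turned to 0.0022, NHP2 to 0.23, TSR1 to 0.22 and NOP2 to -0.037 without SH-SY5Y. Without KELLY the values were 0.059 for DDX21, 0.042 for NHP2, 0.19 for NOP14, 0.069 for BYSL, -0.029 for NOP2 and 0.050 for POLR1A. Without SK-N-AS they were 0.15 for NOP14, 0.34 for UTP20 and 0.054 for BYSL, and without BE(2)-C 0.066 for POLR1A. BYSL turned to 0.23 with the mean of probe sets, NOP2 to -0.025 without probe sets marked _s_at or _x_at, and NHP2, from -0.061 to 0.0018 over the single arrays left out, was above 0 without the third array of SH-SY5Y.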
